A study of Mus musculus with 8 samples.

Results

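Calcium- and sodium-activated potassium channels were examined in lumbar dorsal root ganglia (DRG) of α-Gal A(-/0) mice, a model of Fabry disease (FD), and of wildtype mice. The members were taken by gene symbol: Kcnma1, Kcnmb1, Kcnmb2, Kcnmb4, Kcnn1, Kcnn2, Kcnn3, Kcnn4, Kcnt1 and Kcnt2, 10 of the 34763 gene names on the array, with 18 probes. FD mice lack α-galactosidase A, the lysosomal enzyme encoded by the X-linked gene Gla, in every cell. All animals were untreated males aged 20 to 24 weeks. FD mice carried the Gla disruption on a C57BL/6 background and wildtype mice were C57BL/6J. The animals came from separately bred inbred colonies, so colony and genotype cannot be told apart. Each group had 8 mice in 4 samples, since the ganglia L3 to L5 of 2 mice were pooled, and the p-values measure the spread between these pools. Each sample was hybridized in a single color to its own array of 1 Agilent slide.

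Potassium channels of this kind open when an ion that enters during activity builds up inside the cell, and the outward potassium current then dampens further firing. The BK channel has a pore subunit encoded by Kcnma1, gated by voltage and calcium together, and β subunits that set its calcium sensitivity and kinetics. SK channels (Kcnn1, Kcnn2, Kcnn3) and the IK channel (Kcnn4) are opened by calcium through bound calmodulin and carry afterhyperpolarizations, while Slack (Kcnt1) and Slick (Kcnt2) are opened by sodium. In sensory neurons these currents shape the spike, the pause after it and the length of a burst.

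Of the 9 genes that could be tested, Kcnmb1 and Kcnt1 were lower in FD DRG and none was called higher. The quantities given are log2 signals after quantile normalization, or differences of them, FD minus wildtype. A probe was tested when it was well above background on all 8 arrays, which held for 14 of the 18 member probes, of 9 of the 10 genes. Of these 14, 2 were lower and 0 higher at an adjusted p under 0.05 in limma, against 1.11% of all 29432 tested probes lower and 1.96% higher. At the criteria of the methods, p up to 0.01 before adjustment and at least a 1.2-fold change, the member counts were again 2 lower and 0 higher, and 2.36% of all tested probes were lower and 3.67% higher. The FD and wildtype samples did not overlap for 2 member probes, both lower, where this held for 5.10% of all tested probes in the lower and 8.30% in the higher direction. With a single probe per gene, the brightest, the median difference was 0.02 over the 9 genes, and 0.02 over all 21063 tested genes. The median size of the difference was 0.06 over the 14 probes, and 0.10 over all tested probes.

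On each array 56.5% to 60.8% of probes were well above background. On the second principal component of the tested probes, which held 20.4% of the variance, the 4 FD samples lay between -1.4 and 8.4, while the wildtype samples reached 31.2 (sample 1) and -27.3 (sample 2). Values without each sample are therefore given beside the calls. FD samples 1 to 3 and wildtype sample 1 lay in the first row of the slide, the others in the second, so row and group cannot be fully separated. The arrays of the first row had 93 to 141 outlier spots, and those of the second 196 to 221. The share of probes well above background was 58.1% to 60.8% in the first row and 56.5% to 58.5% in the second. The signal of Gla was 16.59 ± 0.096 in FD DRG and 16.62 ± 0.11 in wildtype DRG (SD, n = 4 each). Its probe may lie outside the disrupted part, which the files do not state, so it does not check the labels. All 8 defining markers of sensory neurons on the list were well above background in every sample.

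Each probe is a 60-base oligonucleotide with the sense of the transcript. The first 30 bases are shown for the probes that carry the calls, Kcnmb1 and Kcnt1, and for the 4 probes of Kcnma1, since these read the pore subunit with which the Kcnmb1 product assembles. They are given 5′ to 3′ in lower case, with no base marked.
Kcnmb1: catttgttcaacatctttggaaagctgttt
Kcnt1: aggatttgtgtgctcagataccagtcacca
Kcnma1 probe 1: agagcgtggtttgtttctttgtctttcaca
Kcnma1 probe 2: agattccttgatgcacatttctcttctttc
Kcnma1 probe 3: tggtgatctgttctgcaaagctctgaaaac
Kcnma1 probe 4: tgggtgggcagtcaatgtatacatgtaaat
On mm9 the whole Kcnmb1 probe lies at chr11:33870457-33870516 on the plus strand, and that of Kcnt1 at chr2:25773734-25773793 on the plus strand. The 4 Kcnma1 probes lie on the minus strand of chromosome 14, probe 1 at 24111708 to 24111767, probe 2 at 24118701 to 24118760, probe 3 at 24130916 to 24130975 and probe 4 at 24126279 to 24126338. Exon and UTR annotation was not used here. The 4 sites of Kcnma1 are different, so its probes are separate readings of the gene and may take in different transcripts.

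Kcnma1, the BK pore subunit, differed little at any of its 4 sites. Probe 1, the brightest, read 12.90, 12.93, 13.03 and 12.82 in FD samples 1 to 4, against 12.83, 12.96, 12.99 and 12.99 in wildtype samples 1 to 4. The groups overlapped, and the difference was -0.02 (SE 0.065, 95% interval -0.17 to 0.13, adjusted p = 0.886 in limma). Probe 2 had the largest difference of the 4, with 11.16, 11.24, 11.38 and 11.24 in FD DRG and 11.61, 11.24, 11.32 and 11.26 in wildtype DRG. Here wildtype sample 1 was the highest of all 8 and the rest overlapped, with a difference of -0.10 (95% interval -0.31 to 0.11, adjusted p = 0.610). Probes 3 and 4 differed by -0.02 each, with 95% intervals of -0.22 to 0.18 and of -0.30 to 0.26. No probe of Kcnma1 passed the test, and the interval of probe 1 leaves room for a change of up to 1.13-fold.

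Kcnmb1 encodes the β1 subunit, which raises the calcium sensitivity of BK channels and is best known from smooth muscle, where it links calcium sparks to relaxation. It had the largest difference among the members. Its probe read 10.70, 10.70, 10.79 and 10.66 in FD samples 1 to 4, against 11.45, 11.36, 11.41 and 11.40 in wildtype samples 1 to 4. Every FD sample was below every wildtype sample, and within each group the values lay close together, with SDs of 0.055 in FD DRG and 0.036 in wildtype DRG. The difference of -0.69 (SE 0.053, 95% interval -0.81 to -0.57) corresponds to a level 1.61-fold lower in FD DRG, with an interval of 1.48 to 1.75. It passed the test (adjusted p = 0.000282 in limma) and stood at rank 56 by p among all tested probes. The methods' t-test gave an adjusted p of 0.0048. Leaving out any 1 of the 8 samples gave differences between -0.72 and -0.67 with a highest adjusted p of 0.00266 in limma.

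The plot of single samples for 4 genes sets Kcnmb1 and Kcnt1 beside the pore subunit Kcnma1 and the sodium-activated Kcnt2.

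**Figure D1:**
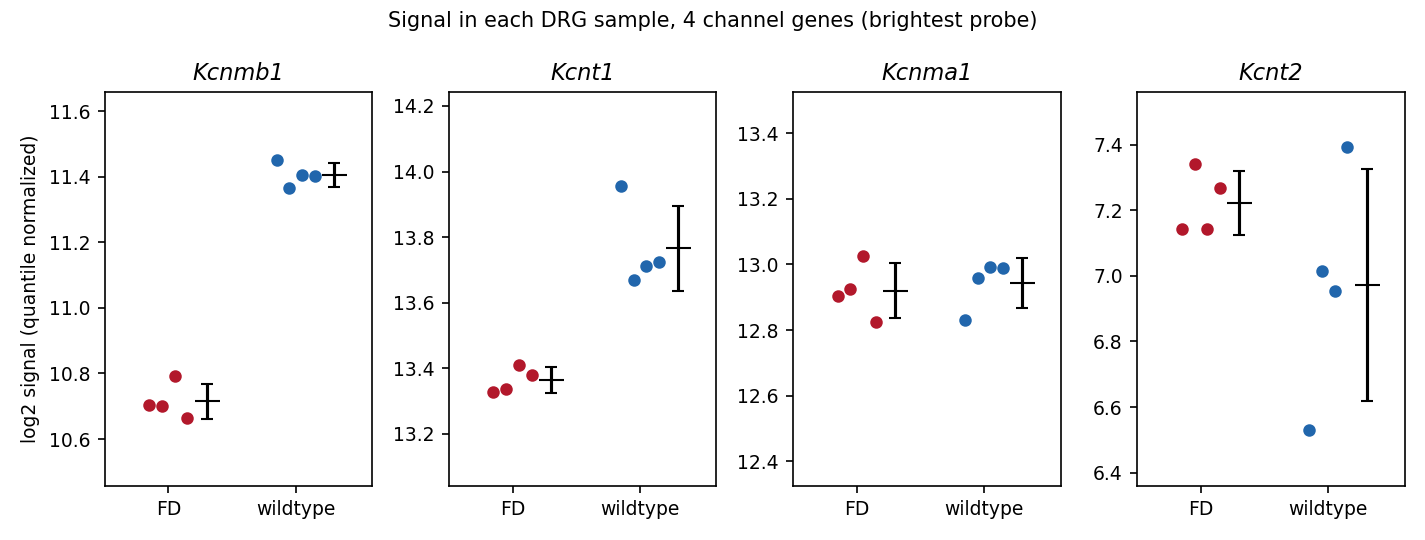
Log2 signal of the brightest probe of Kcnmb1, Kcnt1, Kcnma1 and Kcnt2 in each FD and wildtype DRG sample, in sample order from left to right within a group, with the mean and SD (n = 4) at the right of each group. Each panel spans the same log2 range around its own middle. For Kcnmb1 and Kcnt1 all FD samples lie below all wildtype samples, while for Kcnma1 and Kcnt2 the groups overlap.

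Because Kcnmb1 is known from smooth muscle, the markers of vessel wall cells are given with it. Of 15 listed markers of smooth muscle and pericytes, 12 were tested, 0 were called in either direction and 11 had a negative difference, with a median of -0.13. The mean log2 signal of the 12 markers lay between 8.49 and 8.73 in the FD samples and between 8.73 and 8.91 in the wildtype samples, so that the ranges touched. Among them were Cspg4, which encodes the pericyte proteoglycan NG2, at -0.39 (adjusted p = 0.149), Acta2, smooth muscle actin, at -0.36 (adjusted p = 0.301), the ATP-sensitive potassium channel gene Kcnj8 at -0.30 (adjusted p = 0.319) and Cnn1, calponin, at -0.57 (SE 0.31, adjusted p = 0.384). With the slide row as a block 1 of the 12 was called lower. The smooth muscle genes Lmod1, Myocd and Des were not well above background on all arrays. Of the endothelial markers 9 of 9 were tested and 0 called, with 8 negative differences and a median of -0.20. With array weights, or without wildtype sample 1 or 4, 1 endothelial marker was called lower. Their mean signal lay between 9.35 and 9.43 in the FD samples, against 9.45 to 9.59 in the wildtype samples. Flt1, a VEGF receptor, differed by -0.36 (adjusted p = 0.162), the clotting factor gene Vwf by -0.39 (adjusted p = 0.167), the receptor gene Tie1 by -0.23 (adjusted p = 0.220) and Cdh5, VE-cadherin, by -0.26 (adjusted p = 0.248). As a description chosen after the values were seen, Kcnmb1 minus the mean of the 12 smooth muscle markers of the same sample differed by -0.50 between the groups, with an SD of 0.13 in FD DRG and 0.11 in wildtype DRG (n = 4 each). In whole ganglia, fewer cells of a type and less RNA per cell cannot be told apart.

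The other BK β subunits showed no change past the test. Kcnmb2, whose product makes BK currents inactivate, has 2 probes. Probe 1 read 7.74, 7.73, 8.31 and 7.50 in FD DRG, against 7.98, 7.65, 7.60 and 7.49 in wildtype DRG. FD sample 3 was the highest, the groups overlapped and the difference was 0.14 (SE 0.17, adjusted p = 0.715). Probe 2 read 6.06, 5.88, 6.47 and 6.65 in FD DRG and 6.15, 6.11, 5.71 and 5.74 in wildtype DRG. Its difference of 0.34 was the highest among the tested member probes, but the groups overlapped and the 95% interval ran from -0.07 to 0.75 (adjusted p = 0.373). Kcnmb4, the β4 subunit of neurons, which slows BK gating, also has 2 probes, and their differences were 0.02 (95% interval -0.15 to 0.18) and -0.05 (95% interval -0.25 to 0.15). The brighter of them read 13.24, 13.34, 13.29 and 13.25 in FD DRG, against 13.31, 13.07, 13.35 and 13.31 in wildtype DRG, with wildtype sample 2 below all others.

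**Figure D2:**
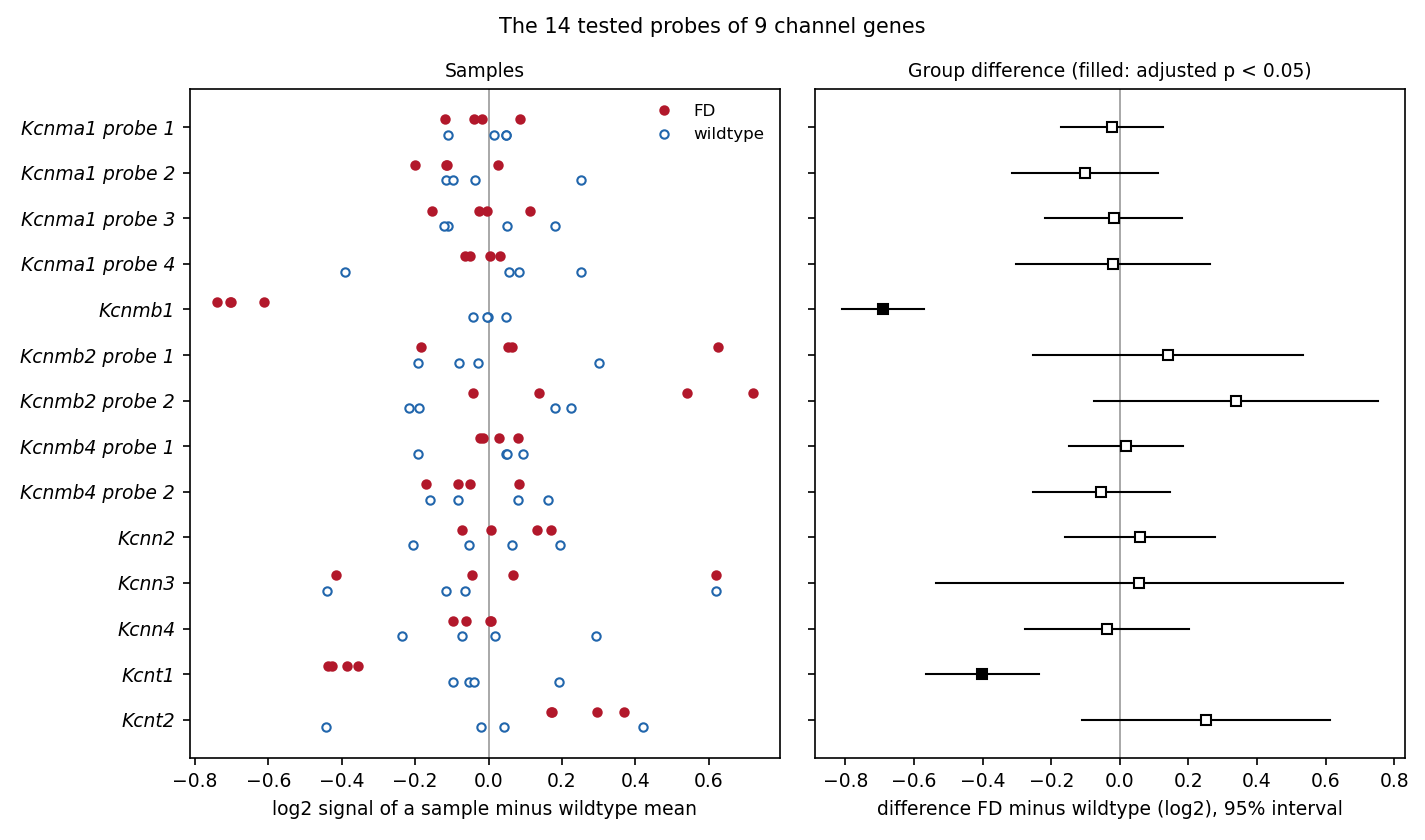
The 14 tested probes of 9 channel genes, with probes of a gene numbered from the brightest. Left, log2 signal of each sample minus the wildtype mean of its probe, FD (filled) above wildtype (open). Right, group difference FD minus wildtype with its 95% interval from limma, filled where the adjusted p was under 0.05. The intervals of Kcnmb1 and Kcnt1 lie wholly below 0, and those of the other 12 probes include 0.

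The genes of the calcium-activated SK and IK channels showed no call. Kcnn2, the SK2 channel gene, was read by a probe printed on 10 spots of each array, whose log2 signals had an SD of 0.04 to 0.08 within an array. Its mean was 10.93, 10.97, 10.81 and 10.73 in FD samples and 10.75, 10.59, 10.86 and 10.99 in wildtype samples. The groups overlapped, with a difference of 0.06 (SE 0.096, 95% interval -0.16 to 0.28, adjusted p = 0.788). The spread between samples of a group, 0.11 in FD DRG and 0.17 in wildtype DRG, was above the spread between spots of an array.

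Kcnn3, the SK3 channel gene, was dim and variable. Its tested probe read 5.91, 5.80, 6.47 and 5.43 in FD DRG, against 5.41, 6.47, 5.73 and 5.78 in wildtype DRG. Single samples of both groups reached the same high value, and the difference of 0.06 had the widest interval of all members, -0.54 to 0.65 (adjusted p = 0.934). Such an interval leaves room for a change of up to 1.57-fold upward and 1.45-fold downward. The second probe of Kcnn3 and the only probe of Kcnn1, the SK1 channel gene, were well above background on 0 of the 8 arrays, so neither gives a level. Kcnn4, the IK channel gene, known from red blood cells, T cells and macrophages, read 9.12, 9.05, 9.02 and 9.12 in FD DRG, against 9.41, 8.88, 9.13 and 9.04 in wildtype DRG. The highest and the lowest value were both wildtype samples, and the difference was -0.04 (SE 0.10, 95% interval -0.28 to 0.20, adjusted p = 0.886). Macrophage markers were read beside it, with 7 of 8 tested and 0 called. Of these 7, 6 had a negative and 1 a positive difference, with a median of -0.115. The one closest to the threshold, Cd68, differed by 0.51 (adjusted p = 0.0573), and Aif1 by -0.46 (adjusted p = 0.233), Mrc1 by -0.26 (adjusted p = 0.298) and Csf1r by -0.11 (adjusted p = 0.540).

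Kcnt1 encodes Slack, the sodium-activated channel that in mice is known from nociceptors without peptide transmitters. Its tested probe read 13.33, 13.34, 13.41 and 13.38 in FD samples 1 to 4, against 13.96, 13.67, 13.71 and 13.73 in wildtype samples 1 to 4. All FD samples were below all wildtype samples, with wildtype sample 1 the highest. The difference was -0.40 (SE 0.072, 95% interval -0.57 to -0.24), a level 1.32-fold lower in FD DRG with an interval of 1.18 to 1.48, and it passed the test in limma (adjusted p = 0.0236). This call was less firm than that of Kcnmb1. The methods' t-test gave an adjusted p of 0.146. In limma the adjusted p was 0.0782, 0.0843, 0.0585 and 0.0687 without FD sample 1, 2, 3 or 4 in turn, and 0.0529 and 0.0559 without wildtype sample 3 or 4. Without wildtype sample 1 the difference was -0.34 (adjusted p = 0.0126), the smallest of all samples left out, and without wildtype sample 2 it was -0.43 (adjusted p = 0.0294). Within the rows of the slide, without a test, FD minus wildtype was -0.60 in the first row, with 3 FD samples and 1 wildtype sample, and -0.32 in the second, with 1 FD sample and 3 wildtype samples. For Kcnmb1 these values were -0.72 and -0.73. The second probe of Kcnt1 was well above background on 0 arrays.

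The alternatives tried for both genes are drawn together, and the sign was negative under each of the 18.

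**Figure D3:**
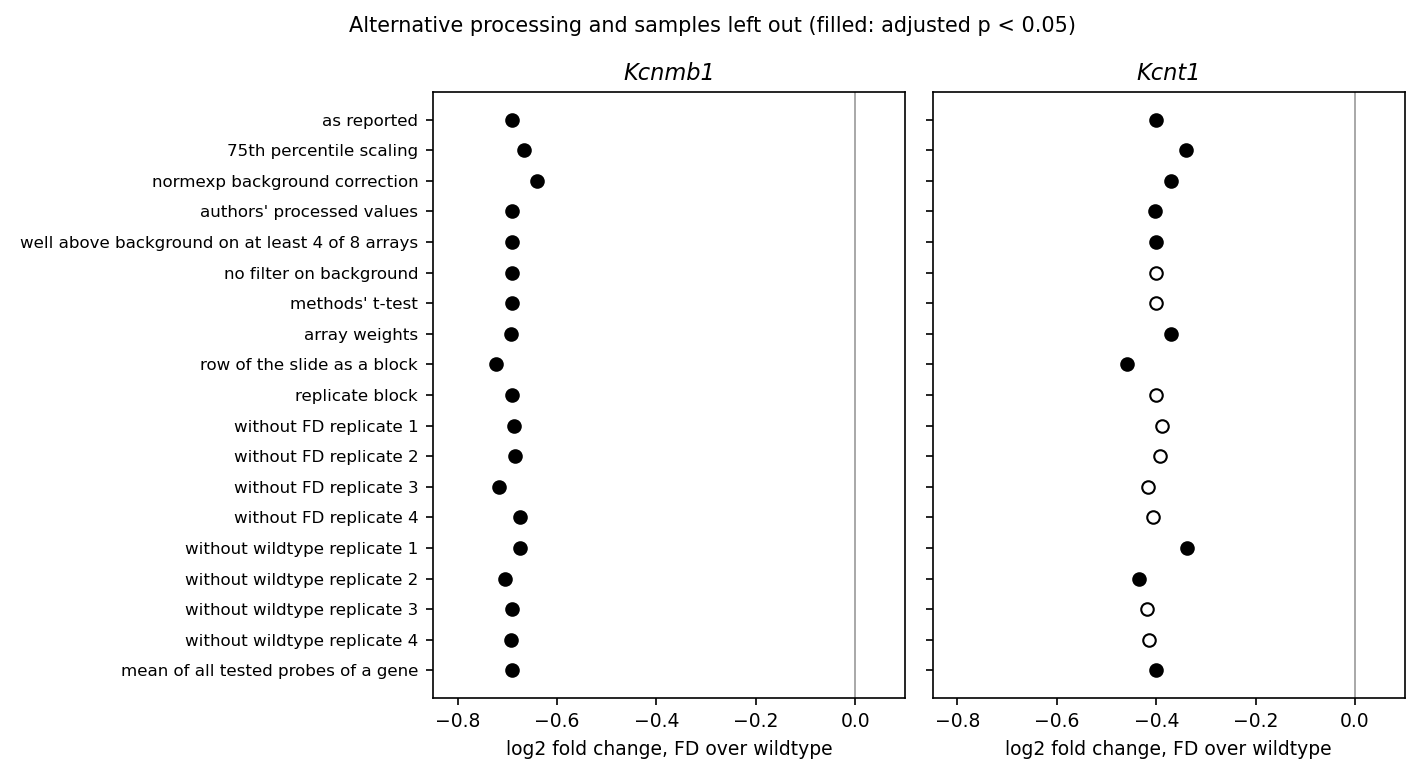
Log2 fold change, FD over wildtype, of Kcnmb1 and Kcnt1 as reported and under the 18 alternatives, filled where the adjusted p was under 0.05. Kcnmb1 was past the threshold under all 18, at -0.72 to -0.64, and Kcnt1 under 9 of them, at -0.46 to -0.34 over the 18.

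Kcnt1 was set beside markers of sensory neurons. Of the 8 defining markers, 1 was called lower and 0 higher, with 6 negative differences and a median of -0.08. The called one was Snap25, which encodes a SNARE protein of transmitter release, at -0.47 (adjusted p = 0.00443), past the threshold under 17 of the 18 alternatives. Avil, advillin, which marks sensory neurons, differed by -0.27 (adjusted p = 0.0565), Scn9a by -0.09 (adjusted p = 0.478) and Uchl1 by -0.10 (adjusted p = 0.487). The mean signal of the 8 markers was 14.15 to 14.20 in FD samples and 14.21 to 14.35 in wildtype samples. Kcnt1 minus this mean, also a description chosen after the values were seen, differed by -0.29 between the groups, with an SD of 0.027 in FD DRG and 0.080 in wildtype DRG (n = 4 each). Of the nociceptor markers 8 of 8 were tested, with 1 higher, 0 lower and a median of -0.12. The higher one was Tac1, the substance P gene, at 0.34 (adjusted p = 0.0493), and this call was lost under 13 of the 18 alternatives, among them the omission of any single sample except wildtype sample 1 (adjusted p up to 0.134). Mrgprd, a receptor of nociceptors without peptides, differed by -0.25 (adjusted p = 0.0546), the peptide gene Calca by 0.14 (adjusted p = 0.204) and the heat receptor gene Trpv1 by 0.13 (adjusted p = 0.221). Among 8 tested markers of large-diameter neurons 0 were called, with a median of -0.05 and with Kcns1 at -0.31 (adjusted p = 0.267), Ntrk3 at -0.27 (adjusted p = 0.272), Ntrk2 at 0.07 (adjusted p = 0.501) and Pvalb at 0.10 (adjusted p = 0.610). The part of any shift in cell make-up in the values of Kcnmb1 and Kcnt1 was not tested.

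Kcnt2, which encodes Slick, had no call and its difference was positive. Its tested probe read 7.14, 7.34, 7.14 and 7.27 in FD DRG, against 6.53, 7.02, 6.95 and 7.39 in wildtype DRG. The wildtype samples spanned all FD values, with wildtype sample 1 the lowest, and the difference was 0.25 (SE 0.16, 95% interval -0.11 to 0.61, adjusted p = 0.454). The second Kcnt2 probe was not well above background on any array. It read 4.31, 3.98, 3.07 and 3.37 in FD DRG and 2.64, 2.73, 2.78 and 2.78 in wildtype DRG, and no fold is given from it.

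Genes that act with these channels were read from 5 lists. For the β and γ subunits of BK and its relative, 3 of 6 genes were tested and 0 called, with Lrrc55, a γ subunit gene, at 0.32 (adjusted p = 0.305), Lrrc38, another, at -0.15 (adjusted p = 0.502) and Kcnu1, the pH-sensitive relative of BK in sperm, at -0.01 (adjusted p = 0.966). Lrrc26, Lrrc52 and Kcnmb3 were not well above background on all arrays. Of 14 calcium sensors, kinases and phosphatases of SK and IK channels, 13 were tested, 1 was higher and 0 lower, with a median of 0.01. The higher gene was Nme2, a histidine kinase known to activate the IK channel, with 15.91 ± 0.032 in FD DRG and 15.60 ± 0.072 in wildtype DRG (SD, n = 4 each, adjusted p = 0.0254 in limma), a call lost under 9 of the 18 alternatives. These included the omission of any FD sample or of wildtype sample 3 or 4 (adjusted p up to 0.0937), and the mean over its probes, which gave 0.17 (adjusted p = 0.233). Calm2 and Calm3, which encode calmodulin, the calcium sensor of SK and IK channels, were at 0.06 and -0.09 (adjusted p = 0.642 and 0.415). The casein kinase gene Csnk2a1, whose product lowers the calcium sensitivity of SK channels, was at 0.10 (adjusted p = 0.642).

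Of 19 genes of calcium entry and release, 17 were tested, with 1 higher, 1 lower and a median of -0.05. Ryr1, a calcium release channel of the endoplasmic reticulum, was lower, with 5.80 ± 0.21 in FD DRG and 6.40 ± 0.066 in wildtype DRG (SD, n = 4 each, adjusted p = 0.0182), and lost its call under 5 of the 18 alternatives, among them the omission of FD sample 2 or of wildtype sample 4 (adjusted p of 0.0512 and 0.0536). With the normexp background correction its difference was -0.30, in place of -0.60. Orai3, a store-operated calcium channel gene, was higher, with 12.14 ± 0.062 in FD DRG and 11.83 ± 0.065 in wildtype DRG (SD, n = 4 each, adjusted p = 0.0297). It lost its call under 10 alternatives, among them the omission of FD sample 1, 2 or 4 or of wildtype sample 3 or 4 (adjusted p up to 0.105) and the mean over its probes, which gave 0.19 (adjusted p = 0.592). Cacna1h, a T-type calcium channel gene, differed by -0.33 with an adjusted p of 0.0511, and its relative Cacna1i by -0.17 (adjusted p = 0.298). Of 12 sodium entry genes 11 were on the array and tested, and 0 were called, with a median of -0.09. The lowest p was that of Scn7a, the sodium-sensing channel gene of glia and some neurons, at -0.30 (adjusted p = 0.0801), followed by Scn1a at -0.17 (adjusted p = 0.184), the nociceptor channel gene Scn10a at -0.14 (adjusted p = 0.229) and Scn3a at 0.23 (adjusted p = 0.275). All 12 partners and regulators of BK and Slack were tested and 0 called, with a median of -0.03. Ano3, whose product raises the sodium sensitivity of Slack in rat nociceptors, was at -0.29 (adjusted p = 0.148), the endocytosis adaptor gene Ap2b1 at -0.19 (adjusted p = 0.314), Cav1, caveolin, at -0.19 (adjusted p = 0.330) and Lingo1 at -0.27 (adjusted p = 0.359).

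**Figure D4:**
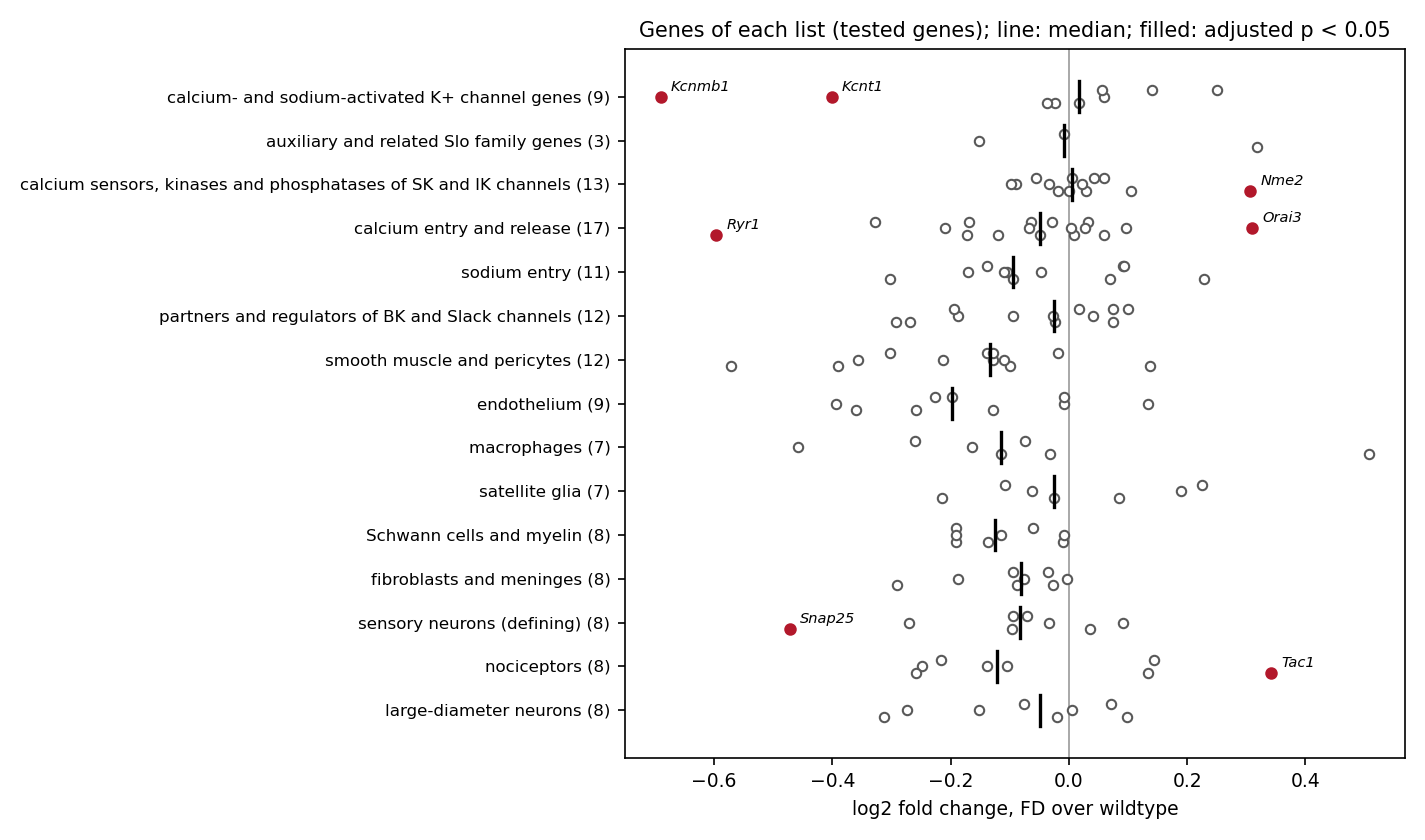
Log2 fold change, FD over wildtype, of each tested gene by its brightest probe, for the channel genes (top row, 9 genes), 5 lists of related genes and 9 lists of cell type markers, with the number tested in brackets. Vertical lines are medians and filled points have an adjusted p under 0.05. Kcnmb1 at -0.69 lies below every gene of the other lists. The medians of all 9 lists of cell type markers lie left of 0.

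The last marker lists are of glia and connective tissue. Among 7 satellite glia markers 0 were called, with a median of -0.03 and with Slc1a3 at 0.19, Glul at 0.22 and the potassium channel gene Kcnj10 at 0.08 (adjusted p = 0.365, 0.365 and 0.671). All 8 Schwann cell and myelin markers were negative and 0 were called, with a median of -0.13 and with Mbp at -0.19 (adjusted p = 0.149), Pmp22 at -0.11 (adjusted p = 0.282), Prx at -0.19 (adjusted p = 0.334) and Ncmap at -0.14 (adjusted p = 0.472). The 8 fibroblast and meninges markers were likewise all negative with 0 called and a median of -0.08, among them Dcn at -0.29 (adjusted p = 0.0806), Col1a2 at -0.19 (adjusted p = 0.420), Pdgfra at -0.09 (adjusted p = 0.563) and Ogn at -0.09 (adjusted p = 0.678).

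The genes around each member were read as well. Within 1 Mb of the Kcnmb1 probe 12 other genes were tested and 0 were called. The potassium channel interacting protein gene Kcnip1 on the same stretch of chromosome 11 was at 0.16 (adjusted p = 0.183). Around Kcnt1, on chromosome 2, 3 of 73 tested genes were called and all 3 were higher: Uap1l1 at 1.09, the lysosomal peptidase gene Dpp7 at 0.72 and C8g at 0.38 (adjusted p = 0.000145, 0.000676 and 0.0429). Over all tested probes, 1.96% were called higher and 1.11% lower, and no difference from these shares was tested. Near Kcnmb2 1 of 14 was called, the transcript BE853708 at 0.40 (adjusted p = 0.0117), and near Kcnn3 1 of 77, Dcst2 at 0.61 (adjusted p = 0.0249). None was called of the 3 near Kcnma1, 22 near Kcnmb4, 14 near Kcnn2, 47 near Kcnn4 and 4 near Kcnt2.

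The genes whose signal was most like that of the called members were found by Pearson correlation over the 8 samples, as a description, since values of both groups share the group difference. For Kcnmb1 the closest were Nnat (r = 0.997), 4933409K07Rik (r = 0.994), an unnamed transcript of chromosome 17 (r = 0.994), Syt15 (r = 0.994) and Fam205a2 (r = 0.992), and each of them was lower in FD DRG. For Kcnt1 they were an unnamed transcript (r = 0.983), Lmo4 (r = 0.983), Avil (r = 0.982), Atg13 (r = 0.977) and Il3ra (r = 0.974), of which Il3ra was called lower in FD DRG (-0.76, adjusted p = 0.00441). After the group means were taken off, other genes came first, with Synrg (r = 0.981) and Ppip5k1 (r = 0.975) among the 5 closest to Kcnmb1, and Rnf10 (r = 0.980) and Stk32c (r = 0.979) among the 5 closest to Kcnt1. These 4 were not called. All these r values were picked as the highest among all tested genes over only 8 samples, and were not tested.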

How the data were processed

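RNA of 8 pooled DRG samples was measured on the arrays of 1 slide. The deposited intensity values are spot signals that the authors extracted with Agilent Feature Extraction 10.7.3.1 (submitters' processing notes), background-adjusted per the file headers. A deposited table of log2 values, which the authors had quantile normalized using GeneSpring software, served as an alternative. Control spots, and the 93 to 221 spots per array marked as outliers, were left out, and 0 spots were saturated. Log2 signals were averaged per probe (55681 probes) and quantile normalized with limma 3.58.1 in R 4.3.3. A probe was tested when at least 0.5 of its spots were well above background on each of the 8 arrays. FD was compared with wildtype by limma (empirical Bayes), with Benjamini-Hochberg adjustment over all 29432 tested probes. The methods' Welch's approximate t-test was run on the same values. For a gene with several probes, lists use the brightest. Symbols were updated through RefSeq accessions of GRCm38.p6, used for names only (28026 probes matched, 1770 with an accession did not, 1651 symbols changed), and probe positions are those of the files, on mm9. The number of arrays limits the precision. The fit was tested on simulated data.

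Named genes are all members with all probes, Gla, the called genes and up to 4 genes of smallest p per list, and the 5 genes most like each called member. Some values under this rule are not reported here. Further genes were named after their values were seen: Kcnip1 and those called near Kcnt1, Kcnmb2 and Kcnn3. The members and lists were chosen with earlier results of these data known. Alternatives were another scaling, background correction, filter and probe rule, the authors' values, array weights, the slide row or replicate number as a block, the methods' t-test and each sample left out.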

Additional observations from a re-analysis of the deposited data

Results flagged for a closer look

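Each group of 4 samples was examined for each of the 18 member probes, and in 2 of these 36 a single sample stood apart, by the ratio of its gap from the others to the range of the group. Chance alone picks out about 1 group in 20. The brighter Kcnmb4 probe read 13.07 in wildtype sample 2, against 13.31 to 13.35 in the other wildtype samples (ratio 0.84). The second Kcnt1 probe, not well above background on any array, read 4.29 in wildtype sample 1, against 2.53 to 2.72 in the other wildtype samples (ratio 0.89). The second Kcnt2 probe, also not well above background on any array and outside the comparison, had a mean log2 signal of 3.68 in FD DRG, with single samples from 3.07 to 4.31, and of 2.73 in wildtype DRG.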

How the results depend on the processing

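Kcnmb1 stayed lower and past the threshold under all 18 alternatives, with differences of -0.72 to -0.64. The number of called member probes was 1 in place of 2 without a filter on background, with the methods' t-test and with the replicate block, and 1 to 2 with single samples left out. The probe lost was that of Kcnt1 (adjusted p = 0.0584, 0.146 and 0.108). At the methods' criteria the count was 2 or, without the filter, 3. By its values the added probe is the second Kcnt2 probe, which read higher in FD DRG but was not well above background on any array. Over all tested probes the number called, 904, was 556 without the filter, 266 with the methods' t-test, 2102 with array weights, 284 with the replicate block and 414 to 1038 with single samples left out. Correlations of deviations from the group mean between same-numbered samples were 0.08, -0.28, -0.04 and -0.04. They were not compared with those of differently numbered samples, so they cannot decide whether the replicate numbers pair the samples. The causes were not tested. Uncalled members changed sign as follows. With the 75th percentile scaling Kcnma1 was at 0.021. With array weights Kcnmb4 was at -0.024. With the slide row as a block Kcnmb2 was at -0.068 and Kcnmb4 at -0.0089. With the mean of all probes of a gene Kcnmb4 was at -0.0185. With single samples left out the ranges were -0.060 to 0.0087 for Kcnma1, -0.022 to 0.25 for Kcnmb2, -0.047 to 0.049 for Kcnmb4, -0.0094 to 0.12 for Kcnn2, -0.13 to 0.26 for Kcnn3 and -0.12 to 0.060 for Kcnn4. Kcnt2 kept a positive difference throughout, at 0.10 to 0.41, with a lowest adjusted p of 0.171. For the 4 member probes not above background, no level or change was measurable. The counts of lists with 0 called genes also moved by 1: with array weights for the auxiliary Slo family genes and macrophages (higher) and for sodium entry, partners of BK and Slack, endothelium, Schwann cells and fibroblasts (lower), with the slide row as a block for smooth muscle (lower) and macrophages (higher), with the normexp correction for sodium entry (lower), without wildtype sample 1 for the auxiliary Slo family genes (higher) and endothelium (lower), and without wildtype sample 4 for endothelium (lower).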
